A study of Mus musculus with 9 samples.

Results

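The genes examined were those of the proteasome, the barrel-shaped protease that degrades ubiquitin-tagged proteins. Members were taken by symbol: protein-coding genes of the deposited table whose symbol begins with Psma, Psmb, Psmc, Psmd, Psme, Psmf or Psmg and goes on with a digit. This gave 50 of the 43346 genes listed. Of these, 49 had enough reads to be tested and *Psmb11*, a beta subunit of the thymus, had 0 reads in each of the 9 libraries. *Psmc3ip* carries a matching name but encodes a cofactor of homologous recombination and is no proteasome subunit, so it is given by itself and summaries refer to the other 48 tested genes. Another 4 rows with such names are pseudogenes, which the rule leaves out and which together held at most 16 reads in a library.

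RNA-Seq had been performed on whole liver of C57/BL6 mice aged 12 weeks, with 3 mice per group. Baseline specimens (0 h) were the liver resected from vehicle-treated mice at 70% partial hepatectomy. Vehicle and NSC specimens were liver remnants taken 40 h after the same operation. NSC stands for NSC-87877, a small molecule inhibitor of the phosphatases SHP1 and SHP2, given at 7.5 mg/kg 2 times a day, per the labels from 12 h before surgery until the end. All 3 groups thus received injections and underwent the resection, and no baseline specimen of NSC-treated mice was analysed here, so that changes made by NSC before surgery and after it cannot be told apart. The comparison of vehicle remnants with baseline addresses the course of regeneration, and that of NSC with vehicle remnants the effect of the inhibitor. In RNA of whole liver, fewer cells of a type and less RNA per cell cannot be told apart.

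The 20S core of the proteasome is a stack of rings. Outer alpha rings (Psma genes) form the gate, and inner beta rings (Psmb genes) hold the catalytic sites: *Psmb5* encodes the chymotrypsin-like, *Psmb6* the caspase-like and *Psmb7* the trypsin-like subunit. Interferon-gamma induces the counterparts *Psmb8*, *Psmb9* and *Psmb10*, which replace these in newly made immunoproteasomes and favour peptides for MHC class I. The 19S regulatory particle caps the core. Its ATPases (Psmc genes) unfold substrates, and its non-ATPase subunits (most Psmd genes) bind and trim ubiquitin chains. Other caps are the interferon-inducible activator of *Psme1* and *Psme2*, the nuclear activator *Psme3* and the large activator *Psme4*. In dividing cells the proteasome removes cyclins and other cell cycle regulators, and in liver it is present in every cell type.

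The 250 bases before the transcription start are shown as examples for 4 members named in the results below. They are the constitutive catalytic subunit *Psmb5*, the regulatory genes *Psmc6* and *Psmd9*, called up and down in NSC remnants, the former not after correction for GC content, and *Psmc3ip*. The windows come from RefSeq on GRCm38.p6, 5′ to 3′ on the gene's strand: chr14:54617996-54618245 (minus strand), chr14:45329574-45329823 (plus), chr5:123227940-123228189 (plus) and chr11:101095436-101095685 (minus). Capitals mark the motif matches named after the sequences.
Psmb5: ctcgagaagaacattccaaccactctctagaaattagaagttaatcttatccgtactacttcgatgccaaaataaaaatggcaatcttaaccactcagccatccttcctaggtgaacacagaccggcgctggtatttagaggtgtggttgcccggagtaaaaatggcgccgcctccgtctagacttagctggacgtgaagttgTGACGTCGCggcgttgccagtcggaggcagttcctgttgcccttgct
Psmc6: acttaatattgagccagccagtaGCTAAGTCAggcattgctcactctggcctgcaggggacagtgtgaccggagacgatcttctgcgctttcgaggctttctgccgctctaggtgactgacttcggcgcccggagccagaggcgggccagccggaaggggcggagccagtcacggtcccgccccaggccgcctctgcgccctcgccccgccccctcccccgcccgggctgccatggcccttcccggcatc
Psmd9: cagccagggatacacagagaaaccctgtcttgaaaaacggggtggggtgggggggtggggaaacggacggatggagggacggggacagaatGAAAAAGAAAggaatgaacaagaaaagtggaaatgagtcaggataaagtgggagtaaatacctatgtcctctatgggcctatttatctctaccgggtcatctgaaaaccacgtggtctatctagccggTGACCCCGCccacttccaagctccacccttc
Psmc3ip: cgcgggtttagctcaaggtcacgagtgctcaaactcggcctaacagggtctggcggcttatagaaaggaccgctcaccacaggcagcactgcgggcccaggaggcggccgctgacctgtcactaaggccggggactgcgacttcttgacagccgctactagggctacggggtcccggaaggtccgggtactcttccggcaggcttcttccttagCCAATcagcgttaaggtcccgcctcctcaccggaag

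In *Psmb5* and *Psmc6* the capitals mark the core of an antioxidant response element (TGACNNNGC), the motif of NFE2L1, a transcription factor known to drive proteasome genes. In *Psmd9* they mark that core and, farther upstream, an interferon regulatory factor element (GAAANNGAAA). In *Psmc3ip* they mark a CCAAT box. Both strands were searched over 42 members with a RefSeq window. The antioxidant core was found in 5 of the 42 genes (11.9%, against 10.2% of all 32851 windows), the CCAAT box in 15 (35.7%, against 33.8%) and the interferon element in 3 (7.14%, against 2.98%). No match of one motif overlapped a match of another in the members' windows. The antioxidant core began 47 bases before the start in *Psmb5*, 227 in *Psmc6* and 31 in *Psmd9*. A match is a run of letters and was not tested as a binding site.

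Total counts were 31187349 to 33943842 per baseline library, 27956396 to 42887589 per vehicle library and 23997363 to 30201051 per NSC library. Summed expression of 4 proliferation markers was 2.97 to 3.79 CPM (counts per 1000000 reads, scaled between libraries) at baseline, 226 to 286 CPM in vehicle and 135 to 692 CPM in NSC remnants. Hepatocyte markers summed to 89651 to 126421 CPM over 6 genes. Each of the 6 had a log2 fold change below 0 in both remnant groups (medians -0.67 in vehicle and -0.73 in NSC). By the test given with the comparisons below, 2 were called down in vehicle and 3 in NSC remnants, beside 11.0% and 16.5% of all genes. Summed levels of 6 macrophage and Kupffer cell markers, all of them detected, were 145 to 216 CPM at baseline, 129 to 218 CPM in vehicle and 249 to 371 CPM in NSC remnants. NSC replicate 1 stood apart from the other NSC libraries, with the lowest proliferation sum (135 CPM) and the highest macrophage sum (371 CPM). Its place in the proteasome results is given below.

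Levels per gene length were compared as FPKM (fragments per 1000 bases and 1000000 reads). At baseline the 14 constitutive core mRNAs lay between 25.3 ± 1.30 FPKM (SD, n = 3) for *Psma3* and 115 ± 7.8 FPKM for *Psmb7*, a 4.55-fold range, although each protein enters the core in equal numbers. This range and order depend on the listed gene lengths, 3894 bases for *Psma3* and 1214 for *Psmb7*. Without division by length *Psma3* had a mean of 102 CPM at baseline, above *Psmb3* (89.3 CPM). Whether the listed lengths are those of the liver mRNAs was not tested. The catalytic subunits *Psmb5* (104 ± 11.5 FPKM) and *Psmb7* and the structural subunit *Psmb1* (113 ± 6.94 FPKM) led the order and lay within or close to each other's spread. The 17 regulatory mRNAs lay between 16.7 ± 1.60 FPKM (*Psmc2*) and 80.9 ± 0.624 FPKM (*Psmc1*), both encoding ATPases of the same ring. Their listed lengths were 5031 and 1518 bases, and their baseline means 86.8 and 127 CPM. The inducible subunits were lower than their counterparts: 22.4 ± 5.95 FPKM for *Psmb10*, 8.55 ± 1.41 FPKM for *Psmb8* and 3.82 ± 0.593 FPKM for *Psmb9*. Near the floor were *Psma8*, the testis alpha subunit, with 0.489 ± 0.145 FPKM from 18 to 32 reads per baseline library, and *Psmc3ip* with 0.142 ± 0.0609 FPKM from 6 to 12 reads. FPKM is divided by the library total alone, so the higher FPKM of NSC remnants in the plot of levels also holds the shift of library composition given with the comparisons.

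**Figure D1:**
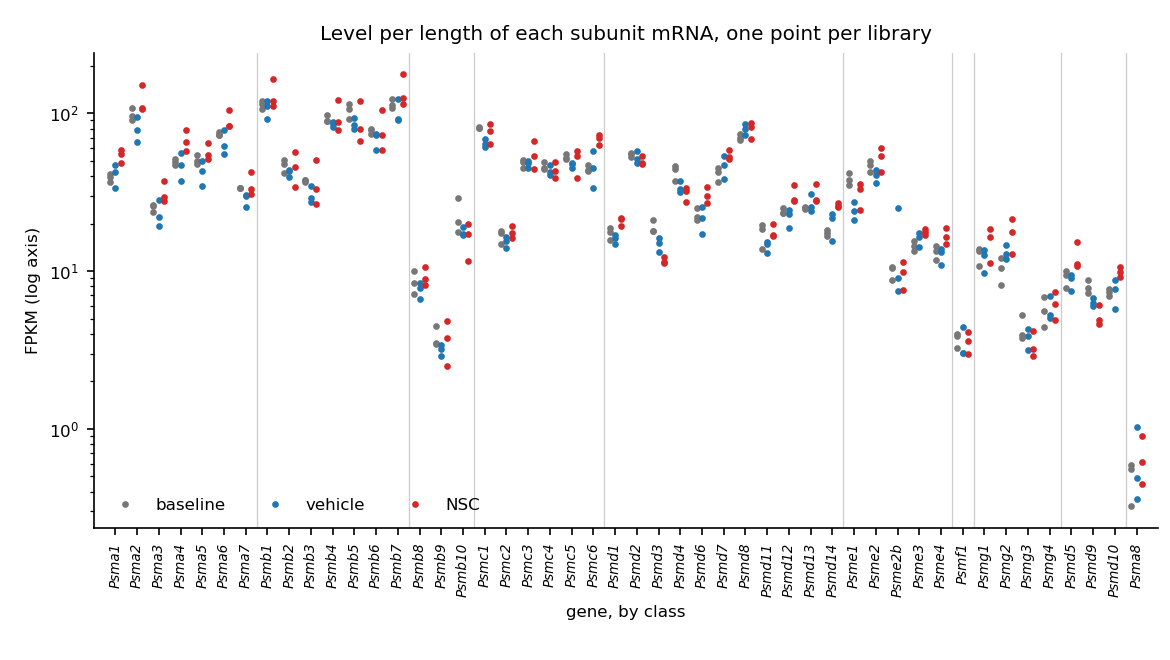
FPKM of each of the 48 tested proteasome genes on a log axis, grouped by class, with 1 point per library in grey (baseline), blue (vehicle) and red (NSC). Points of the 3 groups lie close together for most genes, the constitutive core and regulatory means at baseline run from 16.7 FPKM (*Psmc2*) to 115 FPKM (*Psmb7*), and *Psmb8* and *Psmb9* lie below every constitutive core subunit.

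Few subunit mRNAs changed between resected liver and remnants. In vehicle remnants 1 of the 48 genes was called down and 0 up (called means an adjusted p under 0.05, edgeR's quasi-likelihood test with Benjamini-Hochberg adjustment over 15024 genes). Of all genes tested, 11.0% were called down and 12.7% up (23.7% in either direction). The median log2 fold change of the 48 was -0.13, beside 0.013 over all genes. In NSC remnants 3 of the 48 were called up and 3 down, where 18.2% and 16.5% of all genes were (34.7% in either direction), with a median of 0.016 beside 0.013. With an added requirement of a log2 fold change over 1.5 in size, 0 of the 48 were called in either comparison, where 7.22% and 8.13% of all genes were. Both comparisons use the same 3 baseline libraries. In the direct comparison of NSC with vehicle remnants 0 of 48 were called by edgeR, where 0 genes of all tested were called up and 0.0399% (6 genes) down. There, 9 of the 48 had an unadjusted p under 0.05 (19.5% of all genes), and DESeq2, which called 756 genes in all, called 1 member, *Psmd3*. The median of the 48 was 0.13 beside 0.015. The number of genes called between the remnants depended on single libraries. Without NSC replicate 1 edgeR called 574 of 15390 genes up and 420 down, and without NSC replicate 2 or 3 it called 0. Members called were 0 with any one library left out.

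The precision was sufficient to bound most of these changes. The 95% confidence interval of the log2 fold change lay within -1 and 1 for 45 of 48 members in vehicle against baseline, 43 of 48 in NSC against baseline and 46 of 48 in NSC against vehicle remnants. The same held for 7990, 6972 and 9597 of the 15024 genes. The median SE was 0.17 for members and 0.23 for all genes. With library totals alone in place of scaling factors, the median of all genes in NSC against baseline was 0.15 and that of the tested members 0.16.

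**Figure D2:**
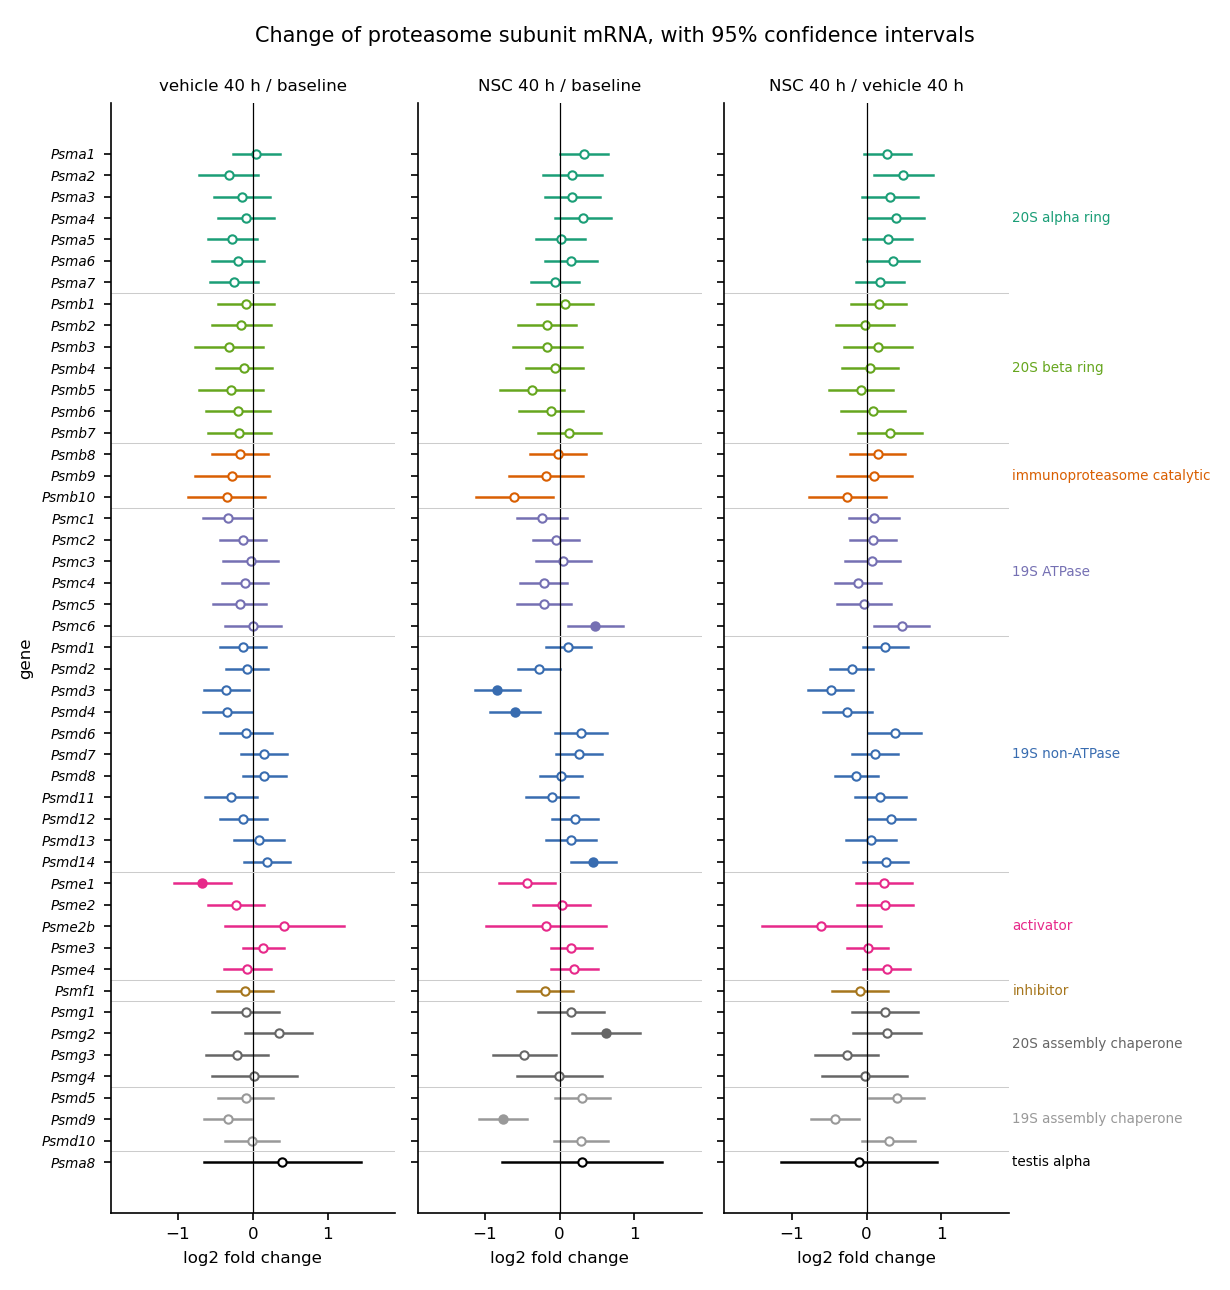
Log2 fold change of each gene in 3 comparisons, with lines for 95% confidence intervals, filled points for an adjusted p under 0.05 and open points for the rest, coloured by class. Filled points are *Psme1* in vehicle against baseline, and *Psmc6*, *Psmd14*, *Psmg2* (right of 0), *Psmd3*, *Psmd4* and *Psmd9* (left of 0) in NSC against baseline, with none in the third panel.

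None of the 14 core subunits was called in any of the 3 comparisons. In vehicle remnants 13 of the 14 had values below baseline, with log2 fold changes from -0.32 to 0.046 and a median of -0.19. The vehicle values of 5 of the 14 lay wholly below the baseline values (22.0% of all genes) and those of 0 wholly above (24.2%). In NSC remnants 8 core subunits had values above and 6 below baseline, with a median of 0.043. The groups did not overlap for 1 of them, *Psma1*, which was higher (24.0% of all genes were higher without overlap, and 23.1% lower). The alpha ring had a median of -0.20 in vehicle and 0.17 in NSC remnants, and the beta ring of -0.18 and -0.11. Against vehicle, all 7 alpha subunits had log2 fold changes above 0 in NSC remnants (median 0.32). Of these, 3 had an unadjusted p under 0.05 (19.5% of all genes) and none passed the adjusted threshold. The values of the 2 remnant groups overlapped for each of the 7, where 10.3% of all genes were higher without overlap.

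Among alpha subunits, *Psma1* had 90.4, 80.4 and 85.2 CPM at baseline, 84.1, 78.0 and 102 in vehicle and 106, 99.5 and 115 in NSC remnants. Its NSC values all lay above baseline, with a log2 fold change of 0.33 (SE 0.14, adjusted p = 0.0996), which missed the threshold. *Psma5* had 75.3, 65.4 and 68.2 CPM at baseline, 54.0, 51.0 and 68.0 in vehicle and 64.6, 66.2 and 79.9 in NSC remnants. Vehicle replicate 3 overlapped the baseline libraries, and the log2 fold change was -0.27 (SE 0.15, adjusted p = 0.213) in vehicle and 0.012 (SE 0.15, adjusted p = 0.959) in NSC remnants. Neither subunit passed the adjusted threshold in any comparison.

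Among beta subunits, *Psmb3*, a structural subunit, had 90.7, 87.4 and 89.7 CPM at baseline, 63.3, 69.7 and 82.1 in vehicle and 55.6, 74.0 and 109 in NSC remnants. All vehicle values lay below baseline, while the NSC values spanned the baseline range on both sides (-0.32 (SE 0.21, adjusted p = 0.301) in vehicle, -0.17 (SE 0.21, adjusted p = 0.570) in NSC). The catalytic subunit *Psmb5* had 83.3, 95.8 and 103 CPM at baseline, 76.6, 77.3 and 76.1 in vehicle and 52.9, 67.8 and 98.3 in NSC remnants. The vehicle values again lay below baseline (-0.29 (SE 0.20, adjusted p = 0.305)), and in NSC remnants the log2 fold change was -0.36 (SE 0.20, adjusted p = 0.171) with replicate 3 inside the baseline range. Without NSC replicate 3 it was -0.64 (adjusted p = 0.0105), so this 1 library decided the call. *Psmb6* had 144, 154 and 151 CPM at baseline, 130.3, 122 and 140.2 in vehicle and 99.2, 133 and 184 in NSC remnants, and *Psmb7* had 156, 143 and 135 CPM at baseline, 106, 123 and 155 in vehicle and 126, 148 and 201 in NSC remnants. NSC replicate 3 was the highest of the 9 libraries for both, and neither gene was called (log2 fold change -0.11 (SE 0.20, adjusted p = 0.686) for *Psmb6* and 0.13 (SE 0.20, adjusted p = 0.631) for *Psmb7* in NSC remnants).

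Of the 17 genes of the regulatory particle, 0 were called in vehicle remnants, where 23.7% of all genes were, and 2 were called up (*Psmc6*, *Psmd14*) and 2 down (*Psmd3*, *Psmd4*) in NSC remnants, a smaller share than the 34.7% of all genes. The median log2 fold change was -0.10 in vehicle and 0.02 in NSC remnants, close to that of the core, but the 17 spread more widely in NSC remnants, from -0.84 to 0.47. No test of core against regulatory subunits was made.

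*Psmd3*, a structural subunit of the lid, at chr11:98682554-98695979, had 92.7, 91.9 and 107 CPM at baseline, 76.7, 83.6 and 67.5 in vehicle and 50.5, 55.4 and 57.6 in NSC remnants. Each NSC value lay below each vehicle value, and each vehicle value below each baseline value. The log2 fold change was -0.36 (SE 0.14, adjusted p = 0.0793) in vehicle and -0.84 (SE 0.14, adjusted p = 0.000987) in NSC remnants against baseline, and -0.48 (SE 0.14, adjusted p = 0.117) between the remnants. This gene had the smallest unadjusted p of all members in the direct comparison, and DESeq2 called it there (adjusted p = 0.0367) and in vehicle against baseline (-0.37, adjusted p = 0.0449). *Psmd4*, the ubiquitin receptor of the particle, had 129, 109 and 134 CPM at baseline, 99.5, 103 and 91.2 in vehicle and 69.3, 88.3 and 88.9 in NSC remnants. The 3 groups followed the same order without overlap, with -0.34 (SE 0.15, adjusted p = 0.121) in vehicle and -0.60 (SE 0.15, adjusted p = 0.00990) in NSC remnants. The NSC call was lost without baseline replicate 3 (adjusted p = 0.0505).

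*Psmc6*, an ATPase, at chr14:45329824-45349071, had 76.6, 69.6 and 70.4 CPM at baseline, 66.3, 58.1 and 92.7 in vehicle and 98.8, 95.8 and 107 in NSC remnants. All NSC values lay above all others, whereas the vehicle libraries lay on both sides of baseline, with vehicle replicate 3 the highest of them. The log2 fold change was 0.47 (SE 0.17, adjusted p = 0.0472) in NSC against baseline and 0.47 (SE 0.17, adjusted p = 0.170) against vehicle remnants. *Psmd14*, the deubiquitinase that cuts ubiquitin chains from substrates, had 48.7, 50.8 and 52.6 CPM at baseline, 58.3, 48.6 and 66.7 in vehicle and 66.4, 70.1 and 71.1 in NSC remnants. Its 3 NSC values lay close together and above baseline, at 0.45 (SE 0.14, adjusted p = 0.0259), and the vehicle value was 0.19 (SE 0.14, adjusted p = 0.349). Both calls were near the threshold. That of *Psmc6* was lost without any one of the 3 baseline libraries, the 3 NSC libraries or vehicle replicate 1 (adjusted p from 0.0562 to 0.128), and that of *Psmd14* without any one baseline library or NSC replicate 2 (0.0624 to 0.0884). Removal of a smooth trend of log2 level with GC content in each library turned *Psmc6* to -0.14 and brought *Psmd14* to 0.09, and neither was then called.

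The ATPase *Psmc1*, with the smallest p of its class in vehicle remnants, had 129, 127 and 126 CPM at baseline, 91.3, 103 and 108 in vehicle and 87.7, 115 and 121 in NSC remnants. Both remnant groups lay below baseline without overlap, with -0.34 (SE 0.15, adjusted p = 0.130) in vehicle and -0.24 (SE 0.15, adjusted p = 0.244) in NSC, and neither passed the adjusted threshold.

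The 3 inducible catalytic subunits were not called in any comparison. Their medians were -0.28 in vehicle and -0.18 in NSC remnants. *Psmb8* had 24.0, 28.4 and 20.2 CPM at baseline, 21.9, 23.8 and 18.7 in vehicle and 20.3, 23.8 and 27.3 in NSC remnants. The groups overlapped, and the log2 fold change was -0.17 (SE 0.17, adjusted p = 0.497) and -0.026 (SE 0.17, adjusted p = 0.922), with an interval of -0.40 to 0.35 in NSC. *Psmb9* had 13.1, 17.1 and 13.3 CPM at baseline, 11.8, 13 and 10.8 in vehicle and 8.28, 13.5 and 16.7 in NSC remnants. Vehicle values lay just below baseline (-0.28 (SE 0.23, adjusted p = 0.400)), and NSC values ran from below them into the baseline range (-0.18 (SE 0.23, adjusted p = 0.572)). *Psmb10* had 23.5, 38.3 and 26.7 CPM at baseline, 20.3, 26.8 and 22.4 in vehicle and 13.3, 21.2 and 23.6 in NSC remnants. Baseline replicate 2 was the highest and NSC replicate 1 the lowest library, and the log2 fold change was -0.35 (SE 0.23, adjusted p = 0.303) in vehicle and -0.61 (SE 0.24, adjusted p = 0.0634) in NSC remnants. *Psmb10* was called without NSC replicate 3 (-0.77, adjusted p = 0.0419), without baseline replicate 1 (-0.75, adjusted p = 0.0471) and by DESeq2 (-0.61, adjusted p = 0.0479).

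Ratios of an inducible mRNA to its constitutive counterpart within a library do not depend on scaling between libraries, but they do depend on a correction for GC content. The level of each percentage also depends on the listed gene lengths (2736 bases for *Psmb8*, 871 for *Psmb5*), which cancel between groups. *Psmb8/Psmb5* was 9.19%, 9.44% and 6.28% of FPKM at baseline, 9.11%, 9.80% and 7.84% in vehicle and 12.3%, 11.2% and 8.87% in NSC remnants. By counts, without division by length, the mean log2 ratio at baseline was -1.96. The log2 difference of the count ratios was 0.12 in vehicle (p = 0.7, exact permutation test, two-sided, n = 3 against 3) and 0.38 in NSC against baseline (exact permutation p = 0.3). *Psmb9/Psmb6* was 4.63%, 5.67% and 4.50% at baseline, 4.63%, 5.45% and 3.96% in vehicle and 4.27%, 5.19% and 4.64% in NSC remnants, and the 3 groups overlapped throughout, with differences of -0.081 and -0.066 (exact permutation p = 0.6 and 0.7). *Psmb10/Psmb7* was 14.4%, 25.7% and 18.9% at baseline, 18.3%, 20.9% and 13.8% in vehicle and 10.1%, 13.7% and 11.2% in NSC remnants. All 3 NSC ratios lay below the other 6. The log2 difference was -0.72 against baseline and -0.59 against vehicle, each with p = 0.1 by the exact permutation test, the smallest p that 3 against 3 libraries can give, and an adjusted p of 0.45 over the 9 ratio tests. After removal of the GC trend these differences were 0.068 and 0.016, so the lower ratio in NSC remnants was seen in the uncorrected values alone.

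**Figure D3:**
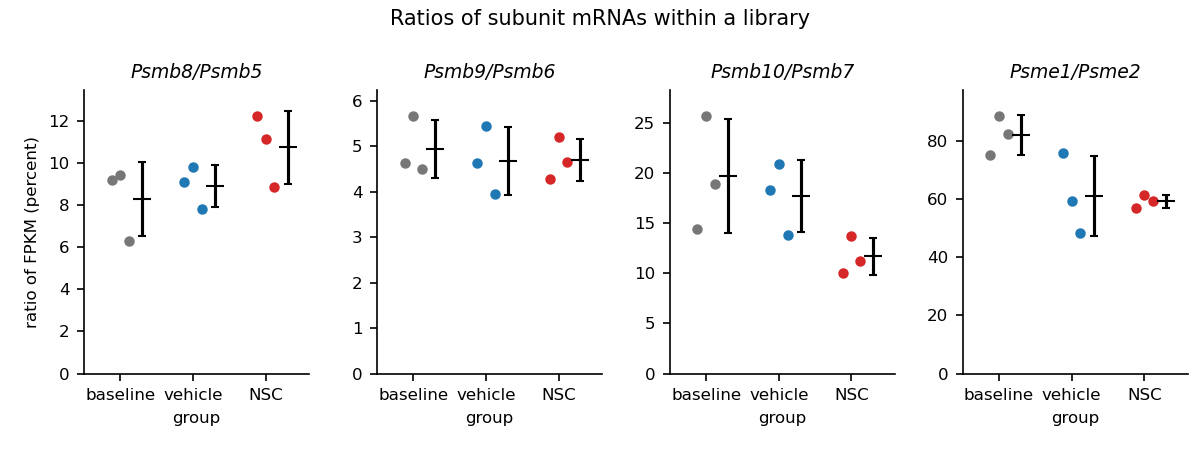
Ratio of FPKM within each library, in percent on axes that start at 0, for 3 pairs of inducible and constitutive catalytic subunits and for *Psme1/Psme2*, with 1 point per library and black bars for mean ± SD (n = 3). NSC libraries lie at 10.1% to 13.7% for *Psmb10/Psmb7*, below the other 6, while the groups overlap for *Psmb8/Psmb5* and *Psmb9/Psmb6*.

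Of the 5 activator genes, *Psme1* was called in vehicle remnants and none in NSC remnants. *Psme1*, the alpha subunit of the interferon-inducible activator, at chr14:55578123-55581529, had 86.8, 95.9 and 79.4 CPM at baseline, 57.5, 58.7 and 48.0 in vehicle and 48.6, 71.2 and 73.9 in NSC remnants. Every remnant value lay below every baseline value. The log2 fold change was -0.67 (SE 0.17, adjusted p = 0.0150) in vehicle and -0.44 (SE 0.17, adjusted p = 0.0676) in NSC remnants, and the difference between the remnants was 0.24 (SE 0.17, adjusted p = 0.463). The vehicle call was lost without vehicle replicate 3 (-0.58, adjusted p = 0.0661), and without NSC replicate 3 the gene was called in NSC remnants as well (-0.54, adjusted p = 0.0424). Its partner *Psme2* had 92, 86.2 and 76.8 CPM at baseline, 60.5, 79.1 and 79.1 in vehicle and 68.0, 92.2 and 99.4 in NSC remnants, with overlapping groups and log2 fold changes of -0.22 (SE 0.17, adjusted p = 0.380) and 0.026 (SE 0.17, adjusted p = 0.924). The ratio *Psme1/Psme2*, computed after the values had been seen and not tested, was 75.3%, 88.9% and 82.5% of FPKM at baseline, 75.9%, 59.3% and 48.5% in vehicle and 57.1%, 61.6% and 59.3% in NSC remnants. Vehicle replicate 1 lay within the baseline range, and the other 5 remnants lay below it.

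The nuclear activator *Psme3* had 47.5, 40.9 and 43.5 CPM at baseline, 49.0, 46.3 and 50.2 in vehicle and 47.0, 52.8 and 47.1 in NSC remnants, at 0.14 (SE 0.13, adjusted p = 0.447) in vehicle and 0.16 (SE 0.13, adjusted p = 0.359) in NSC remnants. *Psme4*, whose activator acts in histone degradation, had 125, 103 and 115 CPM at baseline, 110.2, 102 and 114 in vehicle and 142, 134 and 117 in NSC remnants, at -0.073 (SE 0.14, adjusted p = 0.753) and 0.20 (SE 0.14, adjusted p = 0.310). Values of *Psme3* overlapped between all groups. *Psme4* lay higher in NSC than in vehicle remnants without overlap, as 10.3% of all genes did (12.2% lay lower). *Psme2b*, a near copy of *Psme2* whose reads may be split with it, had 19.8 CPM in vehicle replicate 1 and 5.76 to 9.22 CPM in the other 8 libraries. The inhibitor *Psmf1*, which binds the core, had 21.9, 26.6 and 25.7 CPM at baseline, 27.1, 21.5 and 20.2 in vehicle and 17.3, 22.6 and 24.7 in NSC remnants, at -0.11 (SE 0.17, adjusted p = 0.695) and -0.20 (SE 0.17, adjusted p = 0.398).

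Among assembly chaperones, *Psmd9*, which helps to build the base of the regulatory particle, at chr5:123228190-123250131, had 34.4, 41.6 and 36.6 CPM at baseline, 29.4, 31.9 and 28.2 in vehicle and 20.2, 20.6 and 25.9 in NSC remnants. As with *Psmd3* and *Psmd4*, each NSC value lay below each vehicle value and each vehicle value below each baseline value. The log2 fold change was -0.33 (SE 0.14, adjusted p = 0.115) in vehicle, -0.75 (SE 0.15, adjusted p = 0.00234) in NSC remnants and -0.42 (SE 0.15, adjusted p = 0.157) between the remnants. The call in NSC remnants held without any one library. The other base chaperones, *Psmd5* and *Psmd10*, had log2 fold changes of 0.31 (SE 0.17, adjusted p = 0.175) and 0.29 (SE 0.16, adjusted p = 0.196) in NSC remnants. *Psmg2*, a chaperone of the alpha ring, had 9.0, 13.2 and 11.4 CPM at baseline, 14.7, 13.9 and 14.1 in vehicle and 12.2, 18.3 and 21.2 in NSC remnants. Vehicle values lay above baseline (0.34 (SE 0.21, adjusted p = 0.253)), and NSC values overlapped baseline at replicate 1 but averaged higher (0.62 (SE 0.21, adjusted p = 0.0369)). This call was lost without any one of baseline replicates 1 and 3, the 3 vehicle libraries or NSC replicates 2 and 3 (adjusted p from 0.0508 to 0.139) and after correction for GC content (0.49, adjusted p = 0.107). The remaining chaperones *Psmg1*, *Psmg3* and *Psmg4* were not called, at 0.15, -0.47 and -0.005 in NSC remnants.

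*Psmc3ip*, the recombination cofactor, had 6, 7 and 12 reads at baseline, 92, 71 and 47 in vehicle and 61, 86 and 80 in NSC remnants. These gave 0.189, 0.214 and 0.396 CPM at baseline, 2.30, 1.84 and 1.73 in vehicle and 1.83, 2.92 and 3.13 in NSC remnants. Every remnant lay well above baseline, and the gene was called up in both comparisons, at 2.87 (SE 0.38, adjusted p = 0.000427) and 3.29 (SE 0.38, adjusted p = 0.000136). NSC and vehicle remnants overlapped (0.42 (SE 0.32, adjusted p = 0.491)). It overlaps the gene *Mlx*, and the strand used in counting is not given in the sources used here, so reads of the pair may be mixed. *Psma8* had 18 to 75 reads per library and 0.40 (SE 0.48, adjusted p = 0.595) in vehicle and 0.30 (SE 0.49, adjusted p = 0.669) in NSC remnants, with intervals too wide to show a change of 1 log2 unit. In all, 17 of the 50 members overlap another gene with at least 10 reads, among them *Psmb5* with *Mir686*, *Psmb9* with *Tap1* and *Psme1* with *Emc9*.

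Most proteasome mRNAs had the same highest and lowest library within the NSC group. NSC replicate 3 was the highest NSC library for 42 of the 48 members, against 34.0% of all genes, and NSC replicate 1 the lowest for 42 of 48, against 41.0% of all genes. For the 14 core subunits, NSC replicate 3 was highest of its group in 14 and highest of all 9 libraries in 13. In the vehicle group, replicate 3 was the highest for 29 of the 48 members (35.8% of all genes), 13 of them core subunits, and the lowest place was spread over replicates 1, 2 and 3 (16, 21 and 11 members). At baseline the highest place fell to replicates 1, 2 and 3 for 23, 15 and 10 members. The median over 48 members of log2 CPM relative to the baseline mean was -0.23, -0.01 and 0.21 in NSC replicates 1, 2 and 3, and -0.19, -0.19 and -0.05 in vehicle replicates 1, 2 and 3. The 3 NSC libraries thus spread over more than the difference between the group medians. Results without 1 library refer to the 49 tested members, with *Psmc3ip* among those called up. Without NSC replicate 3 their median log2 fold change in NSC against baseline was -0.11, and 2 were called up and 7 down. Of 15423 genes, 2704 were called up there and 2477 down. Without NSC replicate 1 the median was 0.13, with 3 up and 3 down, beside 2732 and 2454 of 15390 genes.

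Other features also set NSC replicate 1 apart, but not all followed the order of the 3 libraries. In NSC replicates 1, 2 and 3, proliferation sums were 135, 692 and 558 CPM and macrophage sums 371, 249 and 255 CPM. The median of the 6 hepatocyte markers relative to the baseline mean did follow it, at -1.41, -0.63 and -0.34 on the log2 scale. NSC replicate 1, lowest for most subunits, also held the highest macrophage and lowest proliferation sums given above and 13.6 CPM of the leukocyte gene *Ptprc* (6.14 CPM in the lowest NSC library). Between NSC replicates 3 and 1 the log2 difference had a median of 0.46 over the 48 members and 0.01 over 14900 genes. Its Spearman correlation with gene length was -0.46 across the members and -0.34 across all genes, shorter genes being higher in replicate 3, as a description across genes of the same 2 libraries, which are not independent replicates. The part of cell makeup and of gene length in the order of the libraries was not tested.

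**Figure D4:**
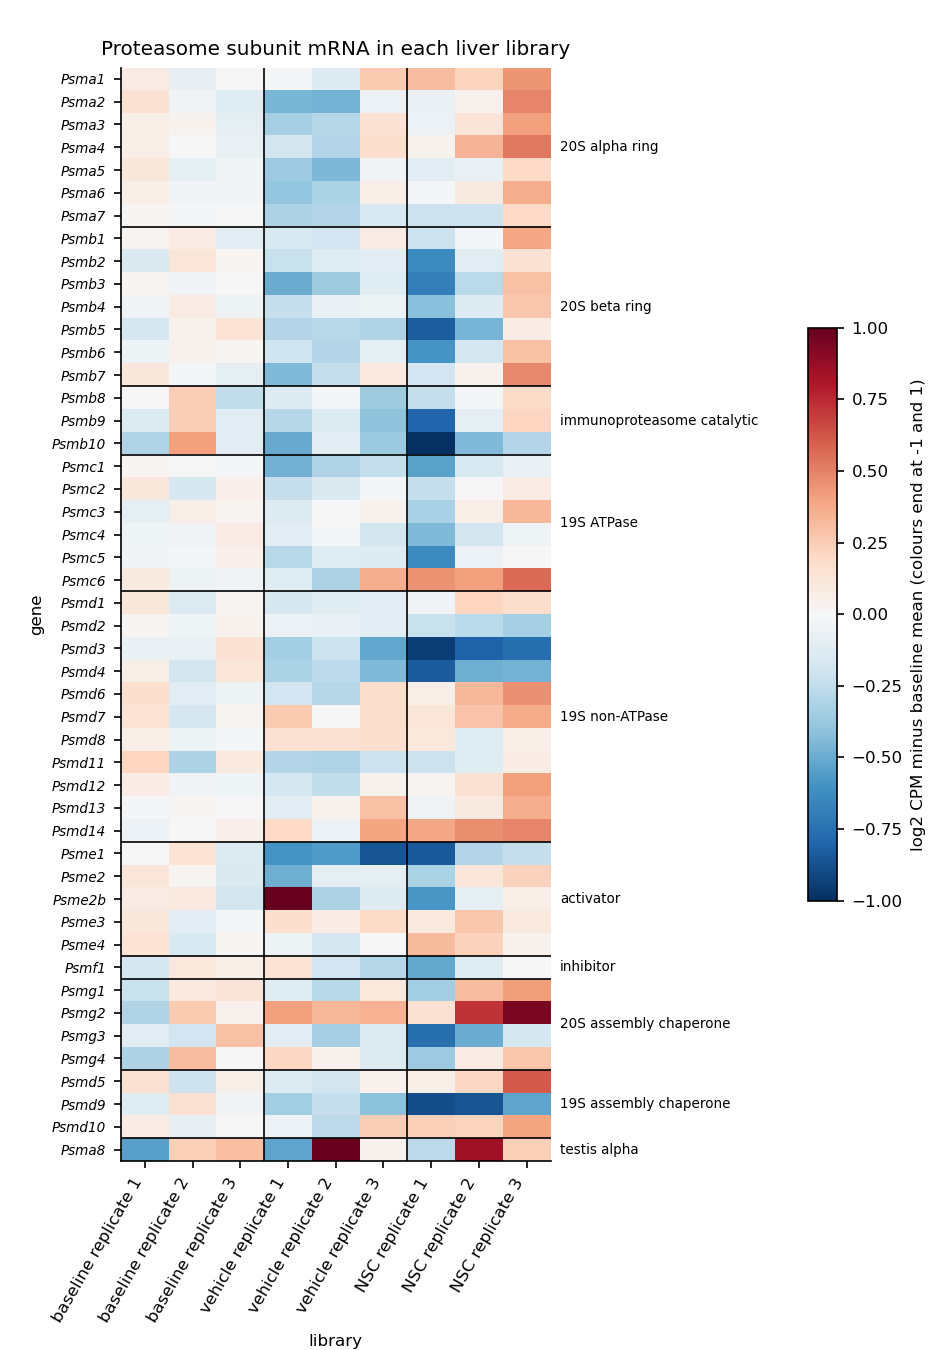
Log2 CPM of each gene (rows, by class) minus its baseline mean in each of the 9 libraries (columns), from blue (lower) to red (higher), with colours ending at -1 and 1. The column of NSC replicate 3 is mostly red and that of NSC replicate 1 mostly blue, while *Psmd3*, *Psmd4*, *Psmd9* and *Psme1* are blue in all remnant libraries and *Psmd14* and *Psmc6* red in all NSC libraries.

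Members with a low GC content had higher fold changes in NSC remnants than those with a high GC content. Across the 48 members, which are not independent, the Spearman correlation of log2 fold change with GC content was -0.30 in vehicle against baseline, -0.63 in NSC against baseline and -0.61 in NSC against vehicle remnants. Across 14900 genes it was -0.13, -0.41 and -0.56. *Psmc6*, highest in NSC remnants among the regulatory genes, had a GC content of 37.0%, and *Psmd3*, the lowest, 55.4%. Removal of the GC trend in each library brought the correlation over all genes to between -0.02 and 0.01 and that of the members to 0.12, 0.32 and 0.32, so that it went past 0 for these genes. After it, *Psmd3*, *Psmd4* and *Psmd9* were still called down in NSC remnants, *Psmc2* and *Psmd11* were added, and of the members called up *Psmc3ip* alone was called. The call of *Psme1* in vehicle remnants held as well.

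**Figure D5:**
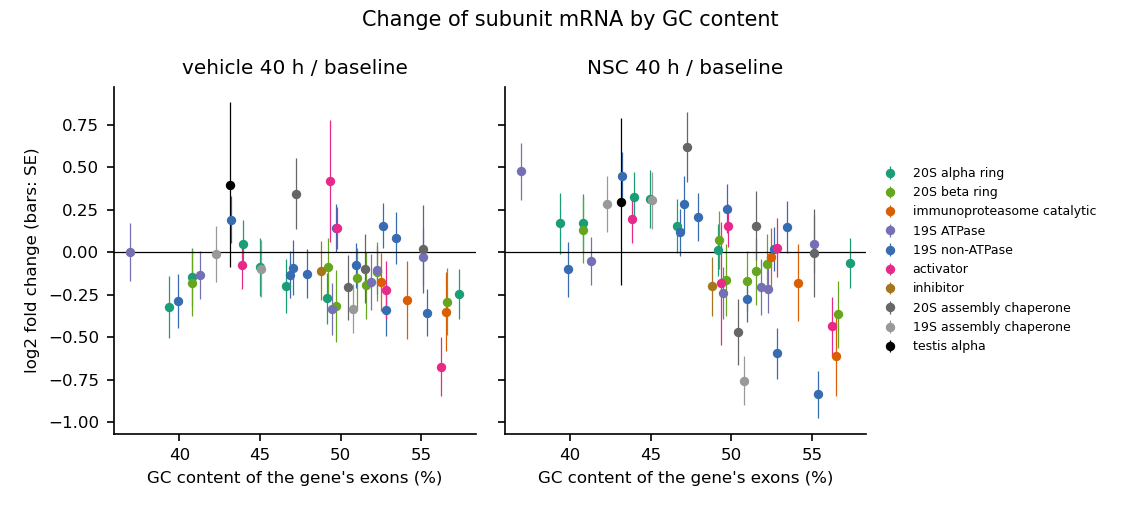
Log2 fold change against baseline (vertical bars for SE) plotted over GC content in percent, for vehicle (left) and NSC remnants (right), coloured by class. GC content, labelled as that of exons on the axis, is that of each gene's longest GENCODE M21 transcript. Points slope downward in the right panel, from *Psmc6* at 37.0% GC to *Psmd3* at 55.4%, and less so in the left panel.

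Genes that act with the proteasome but do not share its names were examined as a list of 26, of which 25 were tested and *Paaf1* was not analysed here. In vehicle remnants 2 were called up and 0 down, with a median log2 fold change of -0.10, and in NSC remnants 4 up and 4 down, with a median of 0.022. Of all genes, 23.7% and 34.7% were called in these comparisons. Between the remnants edgeR called 0, and 7 had an unadjusted p under 0.05 (19.5% of all genes). DESeq2 called *Ubb*, *Adrm1* and *Txnl1* of those named here between the remnants (adjusted p = 0.00679, 0.0359 and 0.0442). *Ubb*, a polyubiquitin gene, had 263, 235 and 250.5 CPM at baseline, 342, 351 and 318 in vehicle and 208, 249.6 and 240.1 in NSC remnants. It was called up in vehicle remnants, at 0.43 (SE 0.15, adjusted p = 0.0473), and was at -0.10 (SE 0.14, adjusted p = 0.618) in NSC remnants. The remnants did not overlap, but the direct comparison missed the threshold with edgeR (-0.54 (SE 0.15, adjusted p = 0.102)). The vehicle call of *Ubb* was lost without any one baseline library, vehicle library or NSC replicate 2 (adjusted p from 0.0630 to 0.136).

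*Adrm1*, a ubiquitin receptor of the regulatory particle, fell in NSC remnants (-0.84 (SE 0.15, adjusted p = 0.00160)) from 48.4, 47.2 and 53.6 CPM to 25, 26.8 and 31.6 CPM, and had -0.28 (SE 0.15, adjusted p = 0.191) in vehicle remnants. The deubiquitinases of the particle rose there: *Uchl5*, which docks on *Adrm1*, by 1.03 (SE 0.18, adjusted p = 0.00119) and *Usp14* by 0.41 (SE 0.15, adjusted p = 0.0485), which turned to -0.11 after correction for GC content. *Txnl1*, a thioredoxin bound to the particle, rose as well (0.60 (SE 0.17, adjusted p = 0.0179)). Of the ubiquitin-activating enzymes, *Uba6* rose in both (0.96 (SE 0.26, adjusted p = 0.0187) and 1.26 (SE 0.26, adjusted p = 0.00319)), and *Uba1* fell in NSC remnants (-0.64 (SE 0.15, adjusted p = 0.00634)). *Ubqln4*, a shuttle factor, and *Nploc4*, a cofactor of the segregase *Vcp*, fell in NSC remnants by 0.53 and 0.46 on the log2 scale (adjusted p = 0.0312 and 0.0397, edgeR). The core maturation factor *Pomp* was not called (0.088 (SE 0.16, adjusted p = 0.734) and 0.25 (SE 0.16, adjusted p = 0.238)), nor was *Nfe2l1*, the transcription factor of proteasome genes, with 123, 113 and 127 CPM at baseline, 128, 121 and 106 in vehicle and 123, 82.4 and 74.6 in NSC remnants (-0.037 (SE 0.19, adjusted p = 0.907) and -0.38 (SE 0.19, adjusted p = 0.136)). NSC replicates 2 and 3 were its lowest libraries, and without NSC replicate 1 it was called in NSC remnants (-0.63, adjusted p = 0.00740).

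Several calls in this list were near the threshold. In vehicle remnants that of *Uba6* was lost without baseline replicate 2, vehicle replicate 1 or vehicle replicate 3 (adjusted p from 0.0511 to 0.0704). In NSC remnants that of *Usp14* was lost without baseline replicate 2 or 3, any one vehicle library or NSC replicate 2 or 3 (0.0546 to 0.195), and those of *Txnl1* (0.0539 to 0.0716) and *Ubqln4* (0.0717 to 0.160) without baseline replicate 1 or 3 or NSC replicate 2 or 3. *Nploc4* lost its call without baseline replicate 1 or 3, vehicle replicate 1 or any one NSC library (0.0562 to 0.130). After correction for GC content *Txnl1* was at 0.083, *Ubqln4* at -0.20, *Nploc4* at -0.27 and *Uba6* at 0.65 in NSC remnants, and none of the 4 was then called there. *Adrm1*, *Uchl5* and *Uba1* kept their calls without any one library and after that correction.

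Of 9 genes of MHC class I processing, known to be induced by interferon with the immunoproteasome, 1 was called down and 0 up in vehicle remnants, and 4 down and 0 up in NSC remnants (11.0% and 16.5% of all genes were called down), with medians of -0.22 and -0.29. Values above 0 were found for 3 of the 9 in vehicle, up to 0.61 (SE 0.21, adjusted p = 0.0582) for the transcription factor gene *Irf1*, and for 2 of the 9 in NSC remnants. The class I heavy chain *H2-K1* fell in both (-0.53 (SE 0.17, adjusted p = 0.0403) and -0.93 (SE 0.17, adjusted p = 0.00175)). The peptide transporter genes *Tap1* and *Tap2*, which lie beside *Psmb9* and *Psmb8* on chromosome 17, fell in NSC remnants (-0.73 (SE 0.19, adjusted p = 0.0111) and -0.91 (SE 0.20, adjusted p = 0.00407)), as did the transactivator *Nlrc5* (-0.79 (SE 0.25, adjusted p = 0.0282)). In vehicle remnants *Nlrc5* missed the threshold in the main fit but was also lower. DESeq2 called it there (-0.67, adjusted p = 0.0476), as did edgeR with only the 2 groups compared (-0.65, adjusted p = 0.0168). The call of *H2-K1* in vehicle remnants was lost without any one baseline library, vehicle library or NSC replicate 2 (adjusted p from 0.0572 to 0.138), and that of *Nlrc5* in NSC remnants without baseline replicate 1 or 2 or NSC replicate 3 (0.0547 to 0.0942). After correction for GC content *Tap1* (-0.41) and *Nlrc5* (-0.61) were not called in NSC remnants. Between the remnants DESeq2 called *Tap2* (-0.68, adjusted p = 0.0418), which edgeR did not. The neighbours *Psmb8* and *Psmb9* were at 0.15 and 0.10 between the remnants, and at -0.026 and -0.18 in NSC against baseline. T and NK cell markers, whose cells make interferon-gamma, summed to 1.56 to 3.17 CPM at baseline, 0.406 to 0.855 CPM in vehicle and 1.45 to 1.62 CPM in NSC remnants over 6 genes, of which 2 had enough reads to be tested, and their part in these values was not tested.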

How the data were processed

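Total RNA of whole liver had been made into TruSeq Stranded mRNA libraries. Per the labels, the authors aligned reads with STAR 2.6.1 and counted them per gene with featureCounts of Subread 1.5.1. The deposited count of each gene is a raw, whole number, and the FPKM values were made by the authors from these counts, gene length and library total. The labels name the build hg38, but the table holds mouse Ensembl identifiers and positions, of which 35 of 50 members equal GENCODE M21 and all 50 overlap it. Whether counting used strand is not given in the sources used here.

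The members and gene lists were chosen with earlier results of these data known, and some genes of the 2 other lists and 1 motif are not reported here. Counts were tested in R 4.3.3 with edgeR 4.0.16: TMM factors, filterByExpr, and 1 robust quasi-likelihood fit of all 9 libraries with group as the sole term, for 15024 genes. CPM use TMM factors. A call is a Benjamini-Hochberg adjusted p under 0.05 over all genes of a comparison, and the study's figure also used a fold threshold of 1.5 on the log2 scale, tried as an alternative. Ratios of log2 counts (0.5 added) were compared by exact two-sided permutation tests in scipy 1.17.1, adjusted over 9 tests. The code was tested on simulated data. The labels do not say that equal replicate numbers mark the same mouse, and p-values measure the spread between these livers.

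Alternatives were DESeq2 1.42.0, RLE factors, library totals, other filters and thresholds, only the 2 groups compared, a replicate block, leaving out each library, and, added after the data were seen, a GC correction (loess, span 0.5). GC content was that of each gene's longest GENCODE M21 transcript. Named with every value were the catalytic subunits and their counterparts, activators *Psme1* to *Psme4*, *Psmf1*, the genes with the smallest p of each class against baseline and of all members between remnants; *Pomp*, *Adrm1*, *Nfe2l1* and every called gene were named too. *Psmd5*, *Psmd10*, *Psmg1*, *Psmg3*, *Psmg4*, *Psme2b*, *Psma8*, *Psmb1* and the MHC class I genes were named beyond that rule, after their values were seen. No promoter window was at hand for *Psma8*, *Psmb1*, *Psmb2*, *Psmb7*, *Psmc3*, *Psmd3*, *Psmd7* and *Psmg2*. No 2 libraries of a group agreed within sampling noise. Figures used pandas 2.3.3 and matplotlib 3.10.9.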

Additional observations from a re-analysis of the deposited data

How the results depend on the processing

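Of the alternatives' results for single genes, 1706 kept direction and side of the threshold, 66 turned direction, 86 lost and 26 gained a call. Of the 49 tested members, *Psmc3ip* included, those called up in vehicle remnants were 0 with at least 10 counts in every library, where that gene is not tested. Members called down in vehicle remnants were 2 with DESeq2, 0 with the fold threshold, 0 at p under 0.01 and 2 at p under 0.1. In NSC remnants, members called up were 1 with the GC correction, 1 with the fold threshold and 1 at p under 0.01, and members called down 5 with DESeq2, 5 with the GC correction, 0 with the fold threshold and 6 at p under 0.1. Their median log2 fold change was 0.16 with library totals, which moved all genes alike. Between the remnants DESeq2 called 1 member down. In NSC remnants the calls of *Psmc6* and *Usp14* were lost with RLE factors (adjusted p = 0.0502 and 0.0507, edgeR). With only the 2 groups compared, *Psmg2* (0.0723), *Usp14* (0.0689), *Ubqln4* (0.0514) and *Nlrc5* (0.0509) lost theirs. Library totals removed those of *Ubqln4* (0.120), *Nploc4* (0.149) and *Nlrc5* (0.0609). In vehicle remnants *Ubb* lost its call with RLE factors (0.0516) and library totals (0.0527), and *H2-K1* with library totals (0.0618). The filter of at least 1 count removed the calls of *Usp14* in NSC (0.0798) and of *Ubb* (0.0906) and *H2-K1* (0.0619) in vehicle remnants. Gained in NSC remnants were *Psma1* with library totals (0.0408) and *Psmb10* with that filter (0.0418). *Uchl5* was gained in vehicle remnants with only the 2 groups compared (0.0333). The cause of these differences was not tested.

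With one library left out at a time, members called down in vehicle remnants ranged from 0 to 1 (0 without vehicle replicate 3). In NSC remnants those called up, *Psmc3ip* included, ranged from 1 to 3 and those called down from 2 (without baseline replicate 3) to 7 (without NSC replicate 3). In vehicle against baseline the median of members ranged from -0.19 to -0.10, and the log2 fold changes that turned direction ranged from -0.070 to 0.13 for *Psma1*, -0.21 to 0.14 for *Psmc6*, -0.062 to 0.18 for *Pomp*, -0.10 to 0.042 for *Nfe2l1*, -0.10 to 0.10 for *Usp14* and -0.051 to 0.10 for *Txnl1*. In NSC against baseline the median of members ranged from -0.11 to 0.13, and the log2 fold changes that turned direction ranged from -0.37 to 0.080 for *Psmb6*, -0.075 to 0.27 for *Psmb7*, -0.14 to 0.10 for *Psmb8*, -0.41 to 0.059 for *Psmb9*, -0.084 to 0.17 for *Psme2*, -0.089 to 0.070 for *Psma5* and -0.46 to 0.039 for *Psmb3*. In NSC against vehicle remnants the median of members ranged from 0.032 to 0.25, and the log2 fold changes that turned direction ranged from -0.35 to 0.11 for *Psmb5*, -0.18 to 0.27 for *Psmb6*, -0.13 to 0.34 for *Psmb9*, -0.044 to 0.041 for *Psme3*, -0.20 to 0.043 for *Psmf1*, -0.15 to 0.35 for *Psmb3* and -0.33 to 0.11 for *Nlrc5*. Log2 ratio differences that turned direction ranged from -0.069 to 0.22 for *Psmb8/Psmb5* in vehicle against baseline, -0.20 to 0.034 for *Psmb9/Psmb6* in vehicle against baseline, -0.34 to 0.079 for *Psmb10/Psmb7* in vehicle against baseline, -0.14 to 0.038 for *Psmb9/Psmb6* in NSC against baseline, -0.10 to 0.13 for *Psmb9/Psmb6* in NSC against vehicle remnants.

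The replicate block, in which equal numbers were treated as paired, left the calls in vehicle remnants at 1 up (*Psmc3ip*) and 1 down and between remnants at 0. It gave 4 up, *Psmc3ip* included, and 4 down in NSC remnants, where *Psmb10* was added (adjusted p = 0.0185, edgeR). With it *Ubb* in vehicle (0.0653) and *Usp14* in NSC remnants (0.0610) were not called and *Nlrc5* was called in vehicle remnants (0.0165). Deviations of equally numbered libraries correlated at -0.048 to 0.13, and those of unequally numbered libraries at -0.12 to 0.066. Most equally numbered pairs lay above the unequally numbered ones, and these small correlations cannot decide whether the numbers mark pairs. The block was kept as an alternative because the labels do not state pairs.

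With the GC correction, direction turned in vehicle against baseline *Psma1* (-0.060), *Psmc6* (-0.17), *Nfe2l1* (0.011), *Txnl1* (-0.13), and in NSC against baseline *Psmb6* (0.012), *Psmb7* (-0.31), *Psmb8* (0.14), *Psmb9* (0.054), *Psme4* (-0.13), *Psmc6* (-0.14), *Ubb* (0.14), *Usp14* (-0.11), and in NSC against vehicle remnants *Psmb5* (0.19), *Psmb7* (-0.0045), *Psmb10* (0.011), *Uba6* (-0.15), *Ubqln4* (0.067), *Nlrc5* (0.0072). The log2 ratio differences that turned with it were 0.052 for *Psmb10/Psmb7* in vehicle against baseline, 0.042 for *Psmb9/Psmb6* in NSC against baseline, 0.068 for *Psmb10/Psmb7* in NSC against baseline, 0.016 for *Psmb10/Psmb7* in NSC against vehicle remnants. With library totals, direction turned in vehicle against baseline *Usp14* (0.019), and in NSC against baseline *Psmb6* (0.023), *Psmb8* (0.11), *Ubb* (0.036), and in NSC against vehicle remnants *Psmb5* (0.051), *Psmf1* (0.022). With DESeq2, direction turned in vehicle against baseline *Psmc6* (-0.012). With RLE factors, direction turned in vehicle against baseline *Psmc6* (-0.011). With the replicate block, direction turned in vehicle against baseline *Psmc6* (-0.020), *Usp14* (0.0029). With genes of at least 1 count, direction turned in vehicle against baseline *Usp14* (0.0013). With at least 10 counts in every library, direction turned in vehicle against baseline *Usp14* (0.012). With only the 2 groups compared, direction turned in vehicle against baseline *Usp14* (0.0057). Of these, *Psmc6* and *Usp14* in NSC against baseline had been called without the correction, and no value was called after turning.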
